A study of Mus musculus with 19 samples.

Results

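The livers of malnourished males (XY) were set against the livers of well-fed females (XX), to ask how near the male liver on a poor diet comes to the control female liver and what still separates them. The groups were taken from the sex and diet labels, which gave 5 malnourished males and 5 control females, 10 of the 19 liver libraries of the series. All mice were wild-type C57BL/6J. Control food drew 65% of its make-up from carbohydrate, 20% from protein and 15% from fat, whereas the malnourishing food, equal in energy, held 88% carbohydrate, 7% protein and 5% fat. Nursing mothers were assigned to a food when pups were 8 days old, the young kept that food after weaning at day 21, and tissue was taken at 8 weeks of age. The other groups of the series, 4 control males and 5 malnourished females, are used as reference points. Sex and diet both differ between the main groups, so their shares in a difference cannot be told apart by that comparison alone.

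Mouse liver is among the most sexually dimorphic organs in the expression of drug, steroid and lipid enzymes. Growth hormone reaches the male liver in pulses and the female liver more evenly, and the transcription factor STAT5B carries this pattern to the genes, with the repressor BCL6 typical of males and the repressor CUX2 typical of females. Food restriction is known to blunt growth hormone action, to engage the response to scarce amino acids, and to switch on fatty acid oxidation through the nuclear receptor PPARA.

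RNA was counted per gene in all libraries, and the 10 compared here held between 21377385 and 33501907 counts. Values are CPM, a gene's counts scaled to the size of the library, and mice of a group are listed as replicates 1 to 5. The sources used here do not name litter or cage, and each p-value therefore reflects mouse-to-mouse spread only. The label numbers of malnourished male 5, control female 5 and control male 4 begin with 62, unlike the others, and what this marks is not given in the sources used here. Control female 5 held the most Cyp7a1, Per2 and Srebf1 RNA of its group, and results that rest on it are given with and without it. The Y-linked genes fitted the labels, since Ddx3y stood at 23.2 to 36.6 CPM in malnourished males and at no more than 0.0694 CPM in control females. Albumin (Alb), the main protein made by hepatocytes, stood at 94010 to 144700 and 98790 to 142000 CPM.

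Of 13391 genes that passed the expression filter, 849 (6.34%) were higher and 809 (6.04%) lower in malnourished males than in control females at an adjusted p below 0.05 (differences are log2 fold changes, edgeR quasi-likelihood test), together 1658 genes or 12.4%. Without malnourished male 3 the called genes numbered 1091. At least a 2-fold difference was fitted for 214 and 219 of these. For 489 genes (3.65%) all 5 malnourished males lay above all 5 control females, and for 464 (3.47%) all lay below, together 7.12%. Against the same 5 control females, control males differed in 1157 genes upward (8.64%) and 1267 downward (9.46%), and malnourished females in 691 (5.16%) and 668 (4.99%), together 10.1%. Scaling by library size alone, in place of the trimmed mean of M values, lowered the share of the called genes that were higher from 51.2% to 40.4% in the main comparison. The same change took that share from 47.7% to 23.3% for control males against control females, from 50.8% to 73.2% for malnourished against control females, from 47.7% to 64.8% for malnourished against control males and from 59.3% to 23.9% for malnourished males against malnourished females. It moved the median log2 difference of all genes from 0.0319 to -0.1015, from -0.0096 to 0.0905 and from -0.0035 to -0.1467 in the first, second and last of these, from -0.0007 to 0.0895 for malnourished against control males, and from 0.0056 to -0.037 in the main comparison.

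As a single measure of nearness, each liver was given its root mean square distance, in log2 CPM over all tested genes, from the control female mean. Malnourished males 1 to 5 lay at 0.643, 0.573, 0.674, 0.606 and 0.523 (mean 0.604 ± 0.059, SD, n = 5). Control males lay at 0.799, 0.776, 0.726 and 0.654 (0.739 ± 0.0642, n = 4), and malnourished females at 0.503 to 0.572 (0.546 ± 0.0288, n = 5). Control females, each measured against the other 4, lay at 0.291 to 0.419. Every malnourished male thus stood outside the range of the control females, and male 3 reached into the range of the control males. The mean for malnourished males was smaller than that for control males by 0.135 (exact permutation test, two-sided, p = 0.0317, adjusted over the 2 distance tests 0.0635), which did not pass. Set against malnourished females, malnourished males were farther by 0.0578 (exact permutation p = 0.0873, adjusted 0.0873), and the ranges overlapped. Y-linked genes add to the distance of every male. Without the listed Y-linked genes and genes that escape X inactivation, the second difference was 0.0413 (adjusted exact permutation p = 0.206). The first was then -0.138 (0.0635). Without control female 5 the first difference was -0.145 (adjusted exact permutation p = 0.0317), and without malnourished male 5 the second was 0.078 (0.0317). Leaving out any other 1 library did not make either difference pass. The adjusted exact permutation p was then 0.0556 to 0.114 for the first and 0.0556 to 0.206 for the second. By group means, 7241 of the 13391 genes (54.1%) in malnourished males were nearer to control females than to control males.

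**Figure D1:**
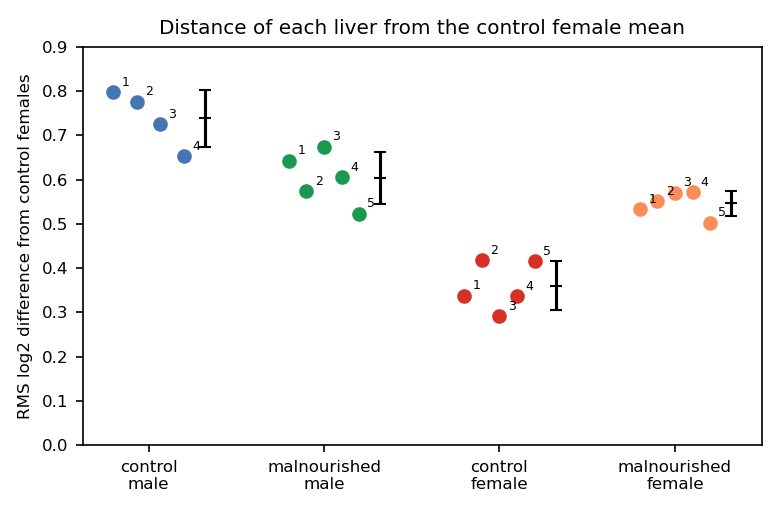
Root mean square log2 difference of each liver from the control female mean over all tested genes, by group, with points numbered by replicate and bars at the mean ± SD. Control females, measured against the other 4, sit between 0.291 and 0.419, malnourished males between 0.523 and 0.674 and control males between 0.654 and 0.799.

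The genes known to be more active in the female liver were described first. Of 34 listed female-biased genes, 32 were tested, and in malnourished males 24 were lower than in control females and 0 were higher (6.04% and 6.34% of all tested genes), with a median log2 difference of -2.40 against 0.0056 over all genes. Over all 32, called or not, the groups did not overlap for 21, all lower (3.47% of all tested genes). In control males all 32 were lower (9.46% of all tested genes), with a median of -6.73. Directly against control males, malnourished males were higher in 23 and lower in 1 (7.11% and 7.8%), and against malnourished females 22 were lower (7.28%). By group means 16 of the 32 lay nearer to control females than to control males, a share near the 54.1% of all genes. Malnourished females were themselves lower than control females in 10 and higher in 2 (4.99% and 5.16% of all tested genes), with a median of -0.53. Leaving out any 1 of the 10 libraries, or the 3 with label numbers from 62, gave 23 to 27 lower genes.

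Part of the female programme was close to the control female level in some malnourished males. Cyp2b9, a cytochrome P450 (chr7:26173411-26210661, mm10), stood at 16.5, 438, 30.2, 266 and 256 CPM in malnourished males 1 to 5 and at 793, 401, 703, 617 and 679 CPM in control females. Males 2, 4 and 5 were far above the control males, which held 0.182 to 1.04 CPM, and male 2 overlapped the control females, while males 1 and 3 were lower. The difference from control females was -1.67 ± 0.56 (SE, adjusted p = 0.0557), which did not pass, and that from control males was 8.80 ± 0.92 (SE, adjusted p = 2.62e-06). Without malnourished male 2 the first was called (-2.17, adjusted p = 0.0194), as it was without control female 2 (-1.79, 0.0453).

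Cyp2a4, a steroid hydroxylase, followed the same order over mice, at 18.2, 753, 67.3, 609.9 and 226 CPM against 907 to 1348 CPM in control females. Here the groups did not overlap, and the difference of -1.73 ± 0.57 (SE, adjusted p = 0.0518) missed the threshold. It was called without malnourished males 1 (-1.43, adjusted p = 0.0332), 2 (-2.27, 0.0166) or 4 (-2.06, 0.0358). For Cyp2a22, a related P450, the difference was -0.62 ± 0.47 (SE, adjusted p = 0.418), beside -6.75 in control males. The acyl-CoA thioesterase Acot3 gave -1.15 ± 0.53 (SE, adjusted p = 0.165) and the flavin monooxygenase Fmo1 -0.16 ± 0.11 (SE, adjusted p = 0.361), and neither passed. A limma-voom fit with weights for library quality called 4 of these genes lower, with Cyp2b9 at -2.97 (adjusted p = 0.00221), Cyp2a4 at -3.00 (0.00326), Cyp2a22 at -1.61 (0.0244) and Acot3 at -1.97 (0.0243). Reads of the Cyp2a, Cyp2b, Cyp3a, Cyp4a, Mup and Sult2a families may have been assigned to the wrong copy where copies are nearly identical, which leaves the individual member uncertain.

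**Figure D2:**
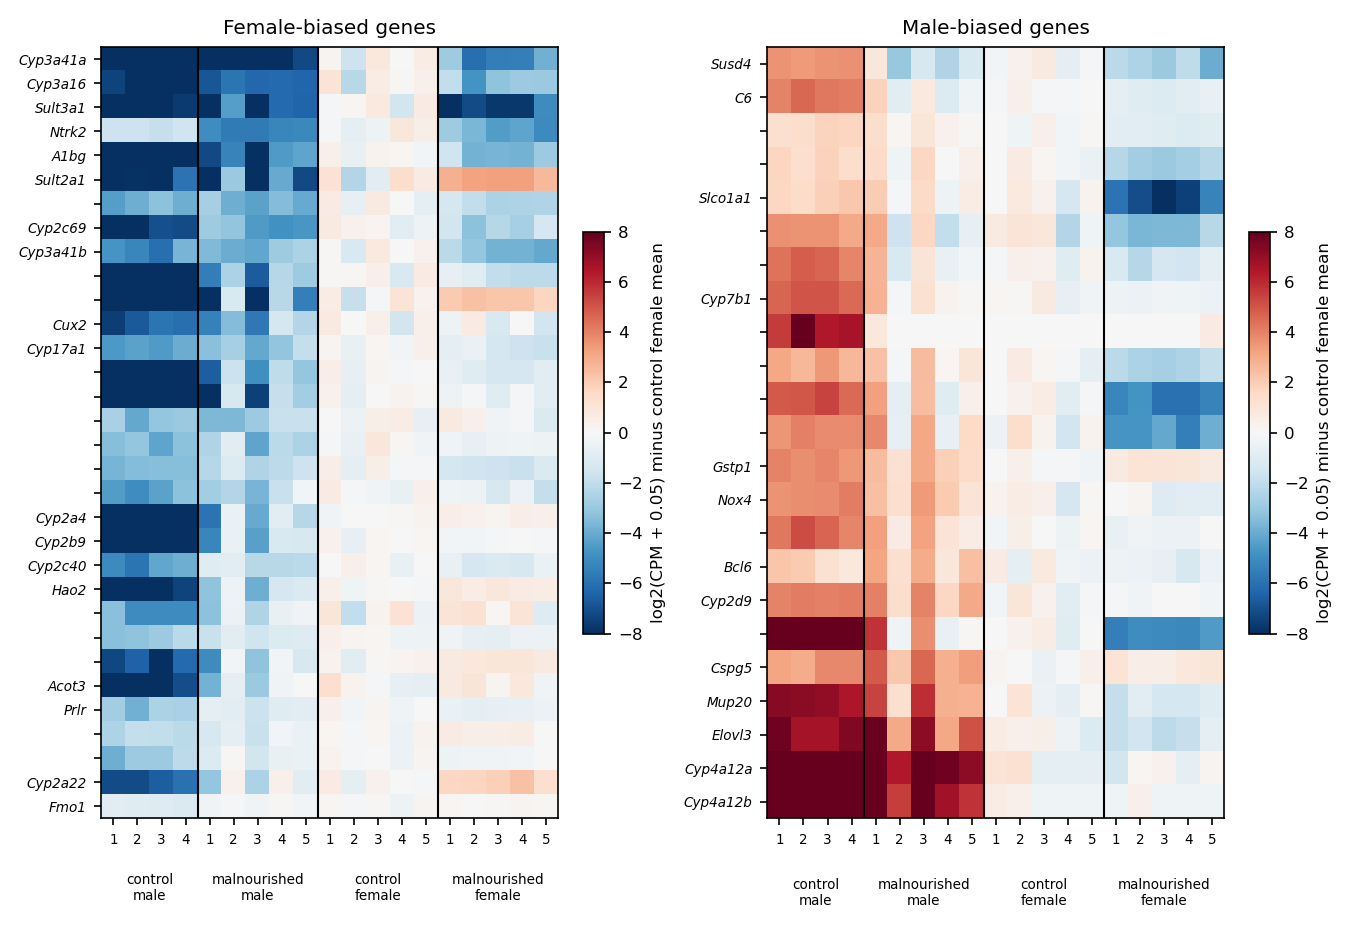
Log2(CPM + 0.05) of each liver minus the control female mean for the tested female-biased genes (left) and male-biased genes (right), with one column per mouse, rows named where the gene is named in the text, and colours ending at 8 in either direction. Malnourished males 1 and 3 sit nearest to the control males in both panels, and the uppermost female-biased genes stay low in all 5 malnourished males.

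Other female-biased genes were all but silent in malnourished males. Cyp3a41a, a female-specific member of the main family of drug-metabolising P450s (chr5:145694049-145720136), held 0.0392, 0, 0, 0.0366 and 0.121 CPM in the malnourished males, against 29.8, 7.82, 46, 24.2 and 38.1 CPM in control females. Control males held 0 to 0.0389 CPM, and no malnourished male overlapped the control females. The difference was -9.34 ± 0.78 (SE, adjusted p = 1.47e-07), the largest downward difference among the genes singled out by rule (-10.38 without malnourished male 5 and -10.27 without the 3 libraries of the 62 series). Malnourished females held 0.34 to 3.4 CPM, a difference of -4.51 from control females (adjusted p = 8.21e-06). Cyp3a16, a relative on the same chromosome, stood at 0.666, 1.44, 1.04, 1.06 and 1 CPM against 179, 18.3, 127, 91.1 and 109 CPM in control females. Every malnourished male was below every control female, and the difference was -6.63 ± 0.56 (SE, adjusted p = 2.07e-07). Cyp3a16 was lower in malnourished females too (-3.25, adjusted p = 7.99e-05).

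The promoters of this pair are shown because both genes were low in malnourished males and lower in malnourished than in control females. Each runs from 250 bases before to 50 after the start, 5′ to 3′ on the gene's minus strand (RefSeq, GRCm38.p6, chr5:145720087-145720386 and chr5:145469674-145469973). Capitals mark CAAAGTCCA, a form of the element bound by HNF4A, a nuclear receptor of hepatocytes.
Cyp3a41a: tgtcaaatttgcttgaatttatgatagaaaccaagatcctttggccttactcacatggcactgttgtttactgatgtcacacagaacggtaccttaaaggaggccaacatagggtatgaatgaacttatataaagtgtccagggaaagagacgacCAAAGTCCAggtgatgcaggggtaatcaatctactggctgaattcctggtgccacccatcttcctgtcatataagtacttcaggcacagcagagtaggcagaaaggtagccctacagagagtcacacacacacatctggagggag
Cyp3a16: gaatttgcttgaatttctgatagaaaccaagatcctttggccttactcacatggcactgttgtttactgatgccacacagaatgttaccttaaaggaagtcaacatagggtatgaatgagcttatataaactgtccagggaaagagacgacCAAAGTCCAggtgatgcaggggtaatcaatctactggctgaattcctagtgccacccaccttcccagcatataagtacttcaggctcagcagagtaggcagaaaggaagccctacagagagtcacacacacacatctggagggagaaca
Without gaps, 280 of 296 overlapping bases (94.6%) were the same in both. The capitals begin 95 and 99 bases before the start. Searched on both strands, CAAAGTCCA was present in 156 of 32851 mouse promoters (0.475%) and in 5 of the 24 female-biased genes with a promoter in the table, which also include Cyp3a41b, Cyp2c40 and Cyp2c69. Those 5 genes were all lower in malnourished males than in control females, as were 24 of all 32 tested genes of the list. The matches in Cyp3a41a and Cyp3a16 are not independent occurrences, since their promoters are nearly the same.

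Among sulfotransferases, which attach sulfate to steroids and drugs, malnourished females were lower than control females in one gene and higher in another, while malnourished males were lower in both. Sult3a1 stood at 0, 0.752, 0, 0.183 and 0.152 CPM in malnourished males against 15.2, 19.1, 29.4, 6.27 and 27.1 CPM in control females, and at 0 to 0.479 CPM in malnourished females. Both malnourished groups lay below every control female (-6.42 ± 0.62 SE, adjusted p = 1.1e-06, and -7.76 without malnourished male 2). Sult2a1, which sulfates bile acids and steroids, stood at 0.0392, 6.15, 0.13, 2.89 and 0.273 CPM against 110, 9.43, 26, 128 and 75.7 CPM in control females and 290.5 to 472 CPM in malnourished females. Malnourished males were thus lower (-5.19 ± 0.81 SE, adjusted p = 0.00025, and -6.42 without male 2), whereas malnourished females were higher than control females (2.54, adjusted p = 0.0206). For this gene the test between the malnourished groups gave -7.73 ± 0.89 (SE, adjusted p = 1.25e-05).

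A1bg, a secreted glycoprotein found in the female mouse liver, held 0.98, 3.6, 0.489, 6.37 and 8.16 CPM against 98 to 201 CPM in control females. It was lower in all 5 malnourished males (-5.30 ± 0.58 SE, adjusted p = 5.07e-06) and higher than in control males (5.30 ± 1.04 SE, adjusted p = 0.00144). Ntrk2, a neurotrophin receptor, behaved otherwise. It stood at 0.666, 0.392, 0.391, 0.549 and 0.576 CPM in malnourished males, below the 6.2 to 7.38 CPM of control males as well as the 12.9 to 41.2 CPM of control females. The difference from females was -5.55 ± 0.39 (SE, adjusted p = 1.19e-08) and that from control males -3.74 ± 0.40 (SE, adjusted p = 3.35e-06), and it is the 1 listed female-biased gene that was lower than in control males. Malnourished females were also lower than control females (-4.05, adjusted p = 3.51e-07).

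Further female-biased enzymes and receptors lay between the control males and the control females. The P450 Cyp2c69 gave -3.88, adjusted p = 2.05e-05, beside -7.82 in control males. Cyp17a1, which makes androgen precursors, gave -2.90, adjusted p = 9.75e-06, beside -4.37. The peroxisomal oxidase Hao2 gave -1.52, adjusted p = 0.0172, beside -8.69, and was not called with the 2 compared groups alone (adjusted p = 0.0777). Prlr, the prolactin receptor, stood at 77.5 to 154 CPM against 195 to 334 CPM in control females and 17.2 to 44.1 CPM in control males. None of the 3 ranges of Prlr overlapped (-1.03 ± 0.21 SE, adjusted p = 0.00268 against females and 1.86 ± 0.23 (SE, adjusted p = 1.76e-05) against control males).

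**Figure D3:**
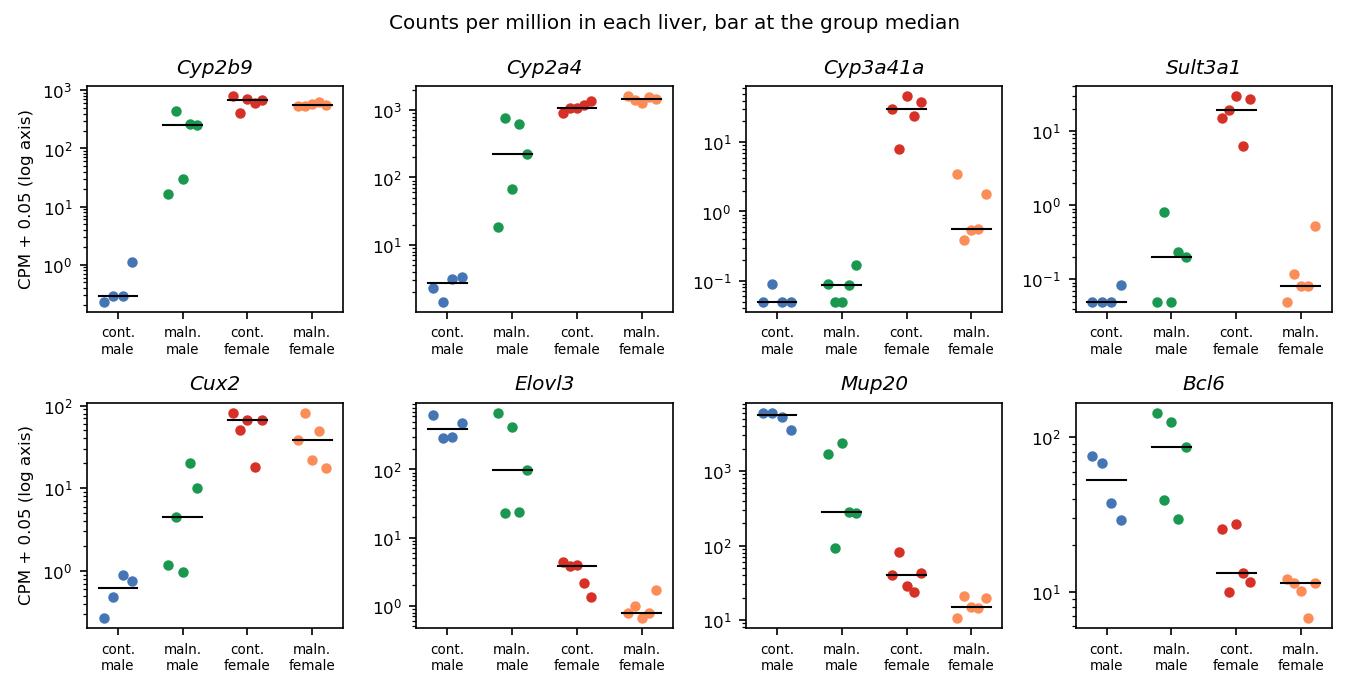
CPM of 8 sex-biased genes in each liver on a log axis, after adding 0.05, with a bar at the group median. Cyp2b9 and Cyp2a4 in malnourished males reach from 16.5 CPM to near the control females, Cyp3a41a stays at or below 0.121 CPM, and Elovl3 and Mup20 stay above every control female.

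Genes known to be more active in the male liver gave the converse picture. Of 24 listed male-biased genes 23 were tested, and 14 were higher and 0 lower in malnourished males than in control females (6.34% and 6.04% of all tested genes), with a median log2 difference of 2.13. Over all 23, the groups did not overlap for 10, all higher (3.65% of all tested genes). All 23 were higher in control males (8.64% of all tested genes), with a median of 3.91. Directly against control males, 14 were lower in malnourished males (7.8% of all tested genes). Without malnourished male 1 the count was 10 higher and 1 lower, and without malnourished male 2 it was 17 higher. Against malnourished females 22 of the 23 were higher (10.6% of all tested genes). By group means 14 of the 23 lay nearer to control females than to control males, beside 54.1% of all genes. Malnourished females were themselves lower than control females in 9 and higher in 1 (4.99% and 5.16% of all tested genes), with a median of -0.98.

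The lipid hydroxylase Cyp4a12a (chr4:115299046-115332815), which makes a vasoactive arachidonic acid product, stood at 248, 11.6, 152, 29.6 and 19.5 CPM in malnourished males. Control females held 0.236, 0.263, 0.0296, 0.0297 and 0.0347 CPM, and every malnourished male was above every control female. The difference was 9.67 ± 0.96 (SE, adjusted p = 1.69e-06), with 8.88 without malnourished male 1 and 10.30 without control female 2. For its near copy Cyp4a12b the control females had 2 counts in all and malnourished males 2252, a count ratio of 1132 (95% interval 313 to 9354, counting error only). Malnourished male 1 was within the Cyp4a12a range of the control males (178 to 319.7 CPM), and the other 4 were below it.

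Elovl3, which lengthens fatty acids (chr19:46131897-46135694), stood at 678, 23.3, 416, 24.1 and 99 CPM against 4.35, 3.81, 3.94, 2.14 and 1.28 CPM in control females and 632, 287, 296 and 481 CPM in control males. It did not overlap the females (6.33 ± 0.82 SE, adjusted p = 3.22e-05, and 5.52 without malnourished male 1). Mup20, a major urinary protein that acts as a male pheromone, stood at 1700, 94, 2357, 282 and 269.6 CPM against 40.1, 82.5, 28.6, 23.4 and 42.5 CPM. Every malnourished male exceeded every control female (4.44 ± 0.67 SE, adjusted p = 0.000178, and 3.76 without malnourished male 3), and every control male exceeded every malnourished male (3505 to 6057 CPM). The P450 Cyp2d9 held 1588, 259, 1494, 306 and 775 CPM against 50.2 to 188 CPM, a difference of 3.07 ± 0.42 (SE, adjusted p = 6.98e-05). Gstp1, a glutathione transferase, was higher by 2.19 ± 0.26 (SE, adjusted p = 1.24e-05), the proteoglycan Cspg5 by 4.20 ± 0.49 (SE, adjusted p = 1.14e-05) and the oxidase Nox4 by 2.20 ± 0.39 (SE, adjusted p = 0.000888).

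Several male-biased genes did not pass against control females. The complement component C6 stood at 108, 16.2, 50.6, 14 and 24.8 CPM in malnourished males and 26.1 to 39.5 CPM in control females, whereas control males held 474 to 703 CPM. Malnourished male 1 was the highest and males 2, 4 and 5 were below every control female, and the difference of 0.51 ± 0.38 (SE, adjusted p = 0.406) did not pass (-0.18 without malnourished male 1). Susd4, a complement inhibitor, gave -0.88 ± 0.49 (SE, adjusted p = 0.247) beside 3.47 in control males. It was called lower without malnourished male 1 (-1.96, adjusted p = 0.0014). Cyp7b1, an oxysterol hydroxylase, stood at 77.9, 10.5, 26.6, 13.8 and 12 CPM against 7.04 to 18.5 CPM (1.24 ± 0.41 SE, adjusted p = 0.0526). Its control males held 257 to 376 CPM, above every malnourished male. The difference of Cyp7b1 from females was 0.41 without malnourished male 1, and it was called without malnourished males 2, 4 or 5 or control female 3 (1.40 to 1.46, adjusted p = 0.0221 to 0.0453). Slco1a1, an organic anion transporter, was at 99.5 to 524 CPM in malnourished males and 51 to 220.4 CPM in control females (0.87 ± 0.44 SE, adjusted p = 0.207), but at 0.461 to 3.18 CPM in malnourished females (-6.60, adjusted p = 4.71e-07).

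The malnourished males were unequal in these lists. Per mouse, the median log2 difference from the control female mean over the female-biased genes was -3.52, -1.27, -4.08, -1.95 and -2.23. Over the male-biased genes it was 3.04, 0.00, 2.97, 0.29 and 0.58. Male 3 was among the 2 lowest of 5 in 29 of the 32 female-biased genes and male 1 in 24, compared with 3 to 4 genes for the other males. In male-biased genes, male 1 was among the 2 highest in all 23 and male 3 in 21, and the others in 0 to 1. Over all tested genes each of the 5 was among the 2 highest in 38.6% to 42.1%.

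The repressors that mark the growth hormone pattern are counted in the lists above. Bcl6, the male-typical one (chr16:23965052-23988852), stood at 144, 39.3, 126, 29.6 and 86.2 CPM against 25.6, 9.89, 27.5, 13.2 and 11.6 CPM. Malnourished males did not overlap control females (2.28 ± 0.40 SE, adjusted p = 0.000888) and were not called different from control males (0.69 ± 0.41 SE, adjusted p = 0.278). Cux2, the female-typical repressor, stood at 1.14, 4.48, 0.912, 20 and 10 CPM against 81.8, 50.8, 66, 17.9 and 66.9 CPM, so only male 4 reached into the female range. It was lower than the female level (-2.95 ± 0.62 SE, adjusted p = 0.00357, and -3.75 without malnourished male 4) and higher than in control males (3.76 ± 0.90 SE, adjusted p = 0.00678).

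Of 23 further regulators and readouts of the sex difference, 1 was higher and 5 were lower in malnourished males than in control females, beside 6.34% and 6.04% of all tested genes. Trim24, a transcriptional cofactor, was lower at -1.48 ± 0.17 (SE, adjusted p = 1.11e-05) and higher than in control males (0.85, adjusted p = 0.00375). The oestrogen receptor Esr1 was lower at -1.12 ± 0.22 (SE, adjusted p = 0.00184), with -1.19 in control males and -1.11 in malnourished females. Igfals, which holds IGF1 in the circulation, was lower at -1.07 ± 0.18 (SE, adjusted p = 0.000604). Igf1 itself gave -0.29 ± 0.16 (SE, adjusted p = 0.248) and the growth hormone receptor Ghr 0.16 ± 0.14 (SE, adjusted p = 0.491), and neither passed, while in malnourished females Igf1 was lower (-1.03, adjusted p = 0.000277). Stat5b gave 0.37 ± 0.15 (SE, adjusted p = 0.124). The 1 that was higher was Igfbp1, a binding protein made by the fasting or insulin-poor liver, at 248, 518, 284, 74.7 and 152 CPM against 33.1, 34.6, 31.7, 16.6 and 35.9 CPM. All malnourished males were above all control females (3.07 ± 0.60 SE, adjusted p = 0.00206), as were the control males (3.20, adjusted p = 0.0013). Nr1i3, which encodes the drug sensor CAR, did not pass (0.15 ± 0.15 SE, adjusted p = 0.541), whereas in control males it was lower (-1.49, adjusted p = 4.01e-06).

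On the sex chromosomes, the 4 listed Y-linked genes were called and did not overlap. Eif2s3y stood at 42.8 to 65.2 CPM, Kdm5d at 15.7 to 20.4 CPM and Uty at 4.46 to 9.15 CPM in malnourished males, and in control females each was at 0.0594 CPM or lower. Among 410 tested X-linked genes 27 (6.59%) were higher and 23 (5.61%) lower, beside 6.31% and 6.07% of 12959 autosomal genes. Of 4 listed genes that escape X inactivation 2 were lower (4 without control female 2, and 0 with the 2 compared groups alone). Eif2s3x, a translation initiation factor, gave -0.92 ± 0.23 (SE, adjusted p = 0.0102), and Kdm6a, a histone demethylase, -0.53 ± 0.15 (SE, adjusted p = 0.0276). With the 2 compared groups alone their adjusted p was 0.0575 and 0.0667. Kdm6a was also not called without malnourished males 4 (-0.45, 0.0649) or 5 (-0.44, 0.058) or control females 3 (-0.53, 0.0542) or 5 (-0.44, 0.071).

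The response to scarce amino acids separated malnourished males from control females. Of 24 tested genes of this list 11 were higher and 1 lower (6.34% and 6.04% of all tested genes), with a median log2 difference of 0.65. In malnourished females 9 were higher and 1 lower against the same control females (5.16% and 4.99% of all tested genes). Leaving out any 1 library gave 10 to 13 higher genes. Asns, asparagine synthetase (chr6:7675169-7693254), stood at 17.4, 20.7, 19, 31.1 and 8.52 CPM against 0.709, 0.624, 0.71, 0.446 and 0.486 CPM in control females and 7.58 to 27.1 CPM in malnourished females. Every malnourished mouse was above every control mouse of either sex, and the difference was 5.02 ± 0.45 (SE, adjusted p = 4.05e-07) in males and 4.95 in females. Control males held 0.835 to 2.69 CPM of Asns. Psat1 and Phgdh, which make serine, were higher by 3.41 ± 0.48 (SE, adjusted p = 7.67e-05) and 3.23 ± 0.59 (SE, adjusted p = 0.0013) (2.59 for Phgdh without malnourished male 4). The mitochondrial folate enzyme Mthfd2 was higher by 2.54 ± 0.35 (SE, adjusted p = 6.97e-05) and the proline enzyme Pycr1 by 1.67 ± 0.25 (SE, adjusted p = 0.000155). Nupr1, a stress-induced nuclear protein, was higher by 1.79 ± 0.33 (SE, adjusted p = 0.00135). The factor that drives this programme is controlled mainly through translation, and its RNA (Atf4) gave 0.033 ± 0.13 (SE, adjusted p = 0.898).

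Fgf21, a hormone the liver releases under low protein or fasting, is counted among the PPARA targets below and not in the amino acid response list. It was at 33.9, 40.8, 85.7, 83.1 and 31.7 CPM against 1.56, 10.5, 1.51, 3.71 and 4.2 CPM in control females. Every malnourished male held more than every control female (3.67 ± 0.55 SE, adjusted p = 0.000188, and 4.31 without control female 2). The control males were within the range of the control females or below it (0.944 to 5.79 CPM), and malnourished females were higher than control females (3.18, adjusted p = 0.000686). Nnmt, which methylates nicotinamide (chr9:48591877-48605153), differed in the other direction, at 0.941, 0.458, 0.782, 0.733 and 1.76 CPM against 78.1, 60.3, 89.7, 95.5 and 80.2 CPM. The difference was -6.41 ± 0.34 (SE, adjusted p = 1.17e-10). It was -6.41 in malnourished females and 0.18 in control males (adjusted p = 0.674), so Nnmt was low in both malnourished groups and in neither control group. Dct, known as a pigment cell enzyme, had the same form, at 0.353, 0.164, 0.293, 0.0733 and 0.152 CPM against 6.61, 5.35, 8.94, 4.93 and 5.97 CPM (-4.93 ± 0.35 SE, adjusted p = 1.39e-08), with -4.67 in malnourished females. Lrtm1, a membrane protein with leucine-rich repeats, stood at 0.941, 0.164, 0.195, 0.366 and 0.819 CPM against 11.9, 6.11, 21, 19.8 and 22.6 CPM (-5.04 ± 0.44 SE, adjusted p = 2.68e-07), with -3.55. The transcript 9130409I23Rik was higher without overlap by 3.28 ± 0.46 (SE, adjusted p = 7.6e-05), with 2.83.

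The promoters of Asns and Fgf21 are shown because both genes stood apart from control females in both malnourished groups. They cover the same span around the start, from the minus strand (RefSeq, GRCm38.p6, chr6:7693160-7693459 and chr7:45615441-45615740). Capitals mark TGATGNAA or its reverse complement, the core of the element bound by ATF4 with its partners.
Asns: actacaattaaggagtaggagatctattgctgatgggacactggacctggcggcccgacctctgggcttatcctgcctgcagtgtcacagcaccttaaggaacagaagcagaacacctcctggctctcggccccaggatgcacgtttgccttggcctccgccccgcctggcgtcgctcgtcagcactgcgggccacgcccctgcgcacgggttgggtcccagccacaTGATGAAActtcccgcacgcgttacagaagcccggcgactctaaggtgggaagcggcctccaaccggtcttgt
Fgf21: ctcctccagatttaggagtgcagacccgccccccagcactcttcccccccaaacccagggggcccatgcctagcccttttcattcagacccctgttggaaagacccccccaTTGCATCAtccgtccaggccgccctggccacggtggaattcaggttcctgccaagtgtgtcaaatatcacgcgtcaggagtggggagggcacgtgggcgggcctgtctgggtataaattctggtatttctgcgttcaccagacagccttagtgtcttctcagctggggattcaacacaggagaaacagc
The match begins 23 bases before the start in Asns and 139 bases before it, on the other strand, in Fgf21. TGATGNAA was found on either strand of 1304 of 32851 promoters (3.97%) and of 7 of 22 listed amino acid response genes with a promoter in the table. Of those 7, Asns, Nupr1 and Pycr1 were higher in malnourished males, Chac1, Trib3 and Vldlr did not pass (Chac1 was called without malnourished male 5, at 1.14, adjusted p = 0.0233), and Slc7a11 was not tested for low counts.

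Of 36 tested enzymes that break down amino acids and make urea, 18 were lower and 2 higher in malnourished males, with a median of -0.47. Of all tested genes 6.04% were lower and 6.34% higher, so the higher count was near the share of all genes. In malnourished females 24 were lower and 0 higher (4.99% and 5.16% of all tested genes). The serine and threonine dehydratase Sds stood at 39.9, 24.8, 29.7, 36.9 and 54.1 CPM against 159, 123, 168, 164 and 147 CPM, without overlap (-2.04 ± 0.36 SE, adjusted p = 0.000896). The liver glutaminase Gls2 was lower at -1.42 ± 0.20 (SE, adjusted p = 7.17e-05), the aminotransferase Agxt at -1.40 ± 0.19 (SE, adjusted p = 7.17e-05) and the urea cycle enzyme Ass1 at -1.18 ± 0.22 (SE, adjusted p = 0.00157). Arginase (Arg1), the last urea cycle step, gave -0.68 ± 0.15 (SE, adjusted p = 0.00557). Cps1, the first step, gave -0.92 ± 0.25 (SE, adjusted p = 0.0194) and lost its call without malnourished male 3 (-0.86, 0.0564), control female 3 (-0.84, 0.0525) or control female 5 (-0.79, 0.0517). Otc, the second step, did not pass (-0.14 ± 0.098 SE, adjusted p = 0.361). Kynu, of tryptophan breakdown, was one of the 2 that were higher (0.39 ± 0.082 SE, adjusted p = 0.00368), and it was higher still in control males (0.85) and lower in malnourished females (-0.40).

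**Figure D4:**
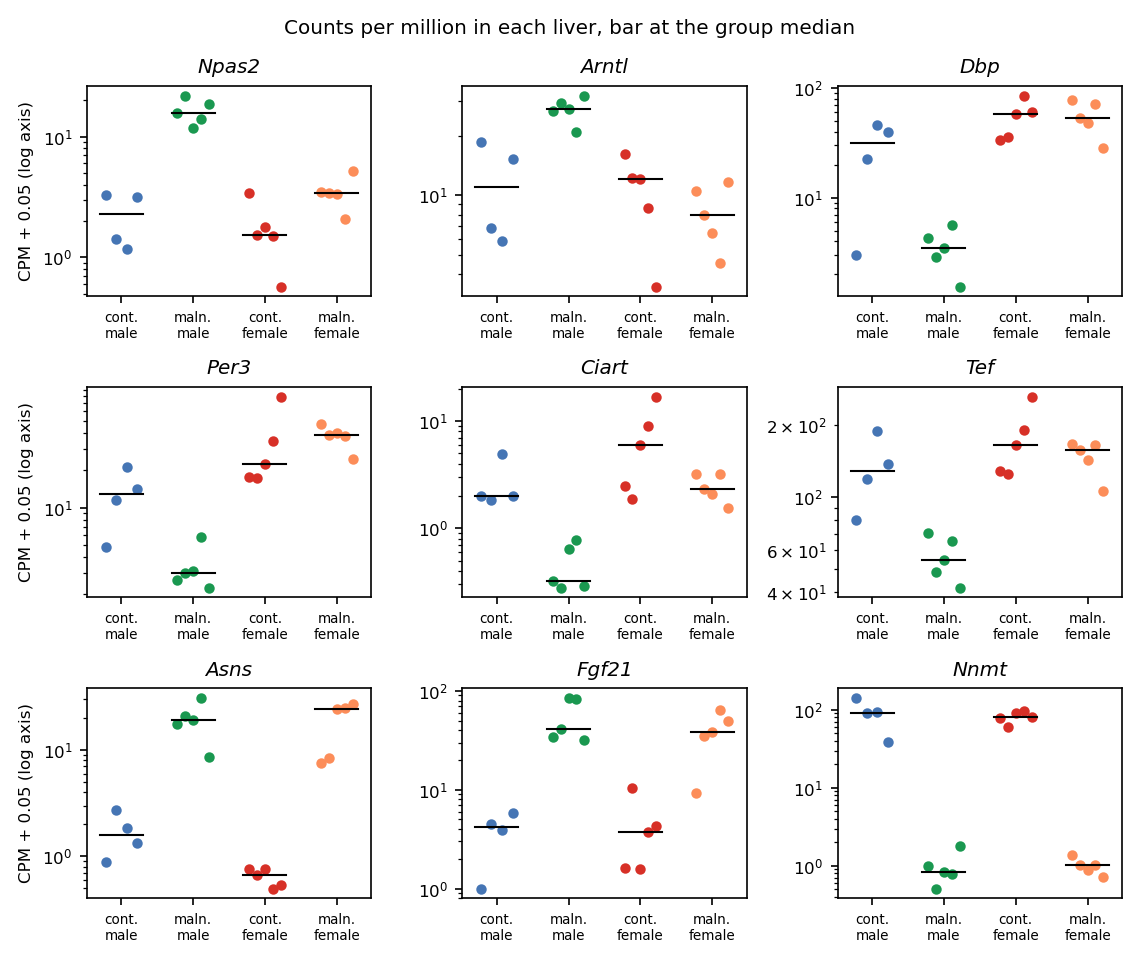
CPM of 6 circadian clock genes and 3 diet-related genes in each liver on a log axis, after adding 0.05, with a bar at the group median. Asns and Fgf21 are high and Nnmt is low in both malnourished groups, while Npas2, Arntl and Ciart in malnourished males do not overlap any other group.

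PPARA is the fatty acid sensor that drives oxidation in the fasted liver. Of 43 tested targets 17 were higher and 0 lower in malnourished males than in control females, with a median of 0.46, beside 6.34% and 6.04% of all tested genes. In control males 1 was higher and 14 lower (8.64% and 9.46% of all genes), and in malnourished females 4 were higher and 0 lower (5.16% and 4.99%). Directly against control males, 31 were higher and 0 lower (7.11% and 7.8%). The count of 17 was 11 without control female 3 and 21 without control female 2. Pdk4, which spares glucose, stood at 15.9, 63, 42.4, 19.1 and 36.9 CPM against 17, 7.46, 5.92, 5.11 and 5 CPM (2.15 ± 0.40 SE, adjusted p = 0.00139). Control female 1 overlapped malnourished male 1. The fatty acid importer Cd36 was higher by 1.59 ± 0.36 (SE, adjusted p = 0.0057), the muscle-type carnitine transferase Cpt1b by 2.02 ± 0.33 (SE, adjusted p = 0.000509), the lipoprotein lipase inhibitor Angptl4 by 1.28 ± 0.30 (SE, adjusted p = 0.00758) and the hydroxylase Cyp4a32 by 1.46 ± 0.25 (SE, adjusted p = 0.000649). Cyp4a14, the best known target in mouse liver, stood at 855, 2479, 1462, 1639 and 1884 CPM against 1176, 997, 313, 339 and 834 CPM, an overlapping difference of 1.19 ± 0.52 (SE, adjusted p = 0.142), called without control male 4 (1.18, 0.0297). Control males held 4.5 to 53.7 CPM of Cyp4a14, a difference from control females of -5.29 (adjusted p = 2.22e-05). The receptor gene Ppara gave -0.27 ± 0.30 (SE, adjusted p = 0.599), and did not pass.

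Genes of drug and oxidant defence were mostly higher where called. Of 30 tested 11 were higher and 2 lower (6.34% and 6.04% of all tested genes), with a median of 0.19. The lower count was near the share of all genes. The epoxide hydrolase Ephx1 stood at 294, 566, 578, 654 and 332 CPM against 176, 175, 123, 149 and 163 CPM without overlap (1.62 ± 0.18 SE, adjusted p = 7.37e-06), beside 1.65 in malnourished females. Gclc, the limiting enzyme of glutathione synthesis, was higher by 1.35 ± 0.14 (SE, adjusted p = 2.62e-06), beside 0.52 in malnourished females. The retinal dehydrogenase Aldh1a1 was higher by 1.24 ± 0.14 (SE, adjusted p = 7.37e-06) and the glutathione transferase Gstm1 by 0.96 ± 0.22 (SE, adjusted p = 0.00607). Sult1a1, which sulfates phenols, was lower (-0.71 ± 0.17 SE, adjusted p = 0.0074). Cyp2c54 did not pass in malnourished males (-0.23 ± 0.32 SE, adjusted p = 0.679), whereas in malnourished females it fell to 1.7 to 6.22 CPM from 60.1 to 188 CPM (-5.35, adjusted p = 3.83e-08).

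Part of cholesterol synthesis and uptake was lower than in control females. Of 24 tested genes 12 were lower and 0 higher (6.04% and 6.34% of all tested genes), with a median of -0.55. In control males 0 were lower and 0 higher (9.46% and 8.64%). Directly against control males, 2 were lower and 0 higher in malnourished males (7.8% and 7.11%). In malnourished females 1 was lower and 0 higher against the same control females (4.99% and 5.16%). Between the malnourished groups 13 were lower in males (7.28% of all tested genes). The count of 12 was 4 without malnourished male 3 or control female 5, 5 without malnourished male 1 or the 62 series, and 6 without malnourished male 5 or with the 2 compared groups alone. Srebf2, the regulator of the pathway, stood at 52.4, 67.5, 39.8, 55.8 and 50.5 CPM against 84.5, 70.2, 69.9, 72.7 and 90.5 CPM in control females. Every malnourished male was below every control female (-0.54 ± 0.12 SE, adjusted p = 0.00418), beside 0.13 in malnourished females.

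Fatty acid synthesis genes were mixed, with 4 of 20 higher and 4 lower (6.34% and 6.04% of all tested genes). The lower count was 2 without malnourished male 1 or 3, control female 3, 4 or 5, or the 62 series. It was also 2 with the 2 compared groups alone. Srebf1, the lipogenic regulator, stood at 214, 187, 143, 133 and 229 CPM against 307, 311, 529, 498 and 1093 CPM without overlap (-1.60 ± 0.29 SE, adjusted p = 0.00105). The triglyceride enzyme Dgat2 was lower at -0.53 ± 0.13 (SE, adjusted p = 0.0103), while malic enzyme Me1 was higher by 1.10 ± 0.24 (SE, adjusted p = 0.00444) and the elongase Elovl5 by 0.92 ± 0.17 (SE, adjusted p = 0.00134). Fatty acid synthase (Fasn) did not pass (-0.77 ± 0.37 SE, adjusted p = 0.182). Against malnourished females 11 of the 20 were lower and 2 higher in malnourished males (7.28% and 10.6% of all tested genes). Of 23 tested genes of bile acid synthesis and its receptor FXR 4 were higher and 1 lower (6.34% and 6.04% of all genes). The counts were 2 and 0 with the 2 compared groups alone. Osgin1, an FXR target, was higher by 1.38 ± 0.31 (SE, adjusted p = 0.00557), and the exporters Abcc3 and Abcb4 by 0.75 ± 0.18 (SE, adjusted p = 0.00984) and 0.44 ± 0.11 (SE, adjusted p = 0.0142), the last not called with the 2 compared groups alone (0.0618). Cyp7a1, the first enzyme of bile acid synthesis, stood at 24.1, 1.6, 4.82, 26 and 13.5 CPM against 40.3, 26.2, 34.3, 19.1 and 204 CPM (-2.21 ± 0.66 SE, adjusted p = 0.0313). The adjusted p was 0.0926 with the 2 compared groups alone. The call rested on control female 5, since it was -1.10 without it (adjusted p = 0.185), and it was also lost without malnourished males 2 (-1.92, 0.0542), 3 (-1.99, 0.0838) or 5 (-2.20, 0.0504).

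Circadian clock genes, which oscillate over the day in liver, were described as a further group. These 18 genes were gathered after Npas2, Dbp and Ciart had appeared among the largest differences. Those genes are counted among the 18, so the counts are not independent support for a difference in the clock. In malnourished males 5 were higher and 10 lower than in control females (6.34% and 6.04% of all tested genes). In control males 1 was higher and 3 were lower than in control females (8.64% and 9.46%). Directly against control males, 3 were higher and 8 lower in malnourished males (7.11% and 7.8%). In malnourished females 0 were higher and 2 lower (5.16% and 4.99%). Between the malnourished groups 5 were higher and 7 lower in males (10.6% and 7.28%). Npas2, a partner of BMAL1 (chr1:39193731-39363236), stood at 15.8, 21.8, 11.6, 13.8 and 18.5 CPM against 3.35, 1.48, 1.75, 1.46 and 0.521 CPM (3.28 ± 0.35 SE, adjusted p = 4.4e-06). Arntl, which encodes BMAL1, stood at 26.7, 29.4, 27.2, 20.9 and 31.9 CPM against 16.1, 12.2, 12.1, 8.62 and 3.4 CPM (1.38 ± 0.34 SE, adjusted p = 0.0106). Both were above every control female. Nfil3, a repressor of the opposite phase to Dbp, was higher by 1.38 ± 0.22 (SE, adjusted p = 0.000421).

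On the other side, Dbp, an output factor of the clock, stood at 4.19, 2.85, 3.45, 5.61 and 1.49 CPM against 33.5, 35.3, 58.5, 85.3 and 60.8 CPM in control females and 28.3 to 77.8 CPM in malnourished females. Every malnourished male was below every female of either diet (-3.97 ± 0.52 SE, adjusted p = 4.01e-05 against control females, and -4.00, adjusted p = 5.07e-05 against malnourished females). Control male 1 was as low, at 2.94 CPM, and the other control males held 22.5 to 46.3 CPM. Per3, a period gene, stood at 2.55, 2.91, 3.03, 5.75 and 2.21 CPM against 17.5, 17.3, 22.3, 34.6 and 78.9 CPM (-3.38 ± 0.44 SE, adjusted p = 3.22e-05, and -2.69 without the 62 series). Ciart, a repressor of the clock, stood at 0.274, 0.229, 0.586, 0.733 and 0.243 CPM against 2.46, 1.81, 5.95, 8.92 and 16.9 CPM (-4.13 ± 0.56 SE, adjusted p = 6.24e-05, and -3.39 without that series). Tef, a relative of Dbp, was lower at -1.64 ± 0.22 (SE, adjusted p = 6.24e-05), and Bhlhe40 at -1.37 ± 0.27 (SE, adjusted p = 0.0019). Per2 gave -1.56 ± 0.40 (SE, adjusted p = 0.0138), but -0.79 (adjusted p = 0.0485) without control female 5, which held 78.1 CPM, and -0.67 (0.0577) without the 62 series. With the 2 compared groups alone its adjusted p was 0.0539. Nr1d1 and Hlf did not pass (Hlf was called without control female 2, at -0.38, adjusted p = 0.0462). The hour of tissue collection is not given in the sources used here, and its part in these or other differences was not tested.

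Promoters of Arntl, Ciart and Per3 are shown as examples of the 3 elements through which clock factors act, for genes on both sides of the difference (RefSeq, GRCm38.p6, chr7:113207261-113207560 on the plus strand, chr3:95882179-95882478 and chr4:151044616-151044915 on the minus strand). Capitals mark AGTAGGTCA, bound by ROR and REV-ERB receptors, in Arntl, the E-box CACGTG, bound by CLOCK, NPAS2 and BMAL1, in Ciart, and TTATGTAA, bound by DBP, TEF and NFIL3, in Per3.
Arntl: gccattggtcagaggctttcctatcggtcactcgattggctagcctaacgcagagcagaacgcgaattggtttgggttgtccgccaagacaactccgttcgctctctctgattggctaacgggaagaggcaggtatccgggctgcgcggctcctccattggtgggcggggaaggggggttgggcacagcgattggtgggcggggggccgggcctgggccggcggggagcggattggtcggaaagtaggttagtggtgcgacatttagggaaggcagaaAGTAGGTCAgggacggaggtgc
Ciart: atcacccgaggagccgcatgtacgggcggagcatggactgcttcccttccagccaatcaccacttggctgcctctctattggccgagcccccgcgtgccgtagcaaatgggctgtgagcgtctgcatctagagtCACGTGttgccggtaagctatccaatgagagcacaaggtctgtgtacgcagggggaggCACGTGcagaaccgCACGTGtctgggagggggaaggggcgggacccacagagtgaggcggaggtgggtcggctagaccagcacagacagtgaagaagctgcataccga
Per3: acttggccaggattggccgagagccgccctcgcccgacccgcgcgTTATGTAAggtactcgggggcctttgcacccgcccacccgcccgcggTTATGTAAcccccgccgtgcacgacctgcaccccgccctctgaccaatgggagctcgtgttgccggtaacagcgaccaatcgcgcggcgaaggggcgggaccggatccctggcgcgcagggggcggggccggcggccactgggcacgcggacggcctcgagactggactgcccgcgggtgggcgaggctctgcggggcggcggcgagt
AGTAGGTCA begins 29 bases after the start of Arntl, and on either strand it was present in 63 of 32851 promoters (0.192%) and in 2 of 15 clock genes with a promoter in the table, Arntl and Nfil3. Both were higher in malnourished males. CACGTG stands 116, 58 and 44 bases before the start of Ciart, and was present in 2349 promoters (7.15%) and in 5 of the 15, of which Cry1 was higher and Per1, Tef, Ciart and Bhlhe41 were lower. TTATGTAA begins 205 and 158 bases before the start of Per3, and was present in 308 promoters (0.938%) and in 1 of the 15. In Fgf21 a CACGTG stands 50 bases before the start, in lower case above.

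Nuclear receptors, ligand-sensing transcription factors named in the title of the study, were called at a share near that of all genes. Of 25 tested 2 were higher and 2 lower, beside 6.34% and 6.04% of all tested genes, with a median of -0.078. Both counts were 1 with the 2 compared groups alone, and leaving out 1 library lowered either count to 1 at the least. Ppard, a relative of PPARA, stood at 27, 22.7, 22.2, 14.8 and 26.3 CPM against 11.9, 10.7, 10.1, 9.18 and 8.99 CPM. Every malnourished male was above every control female (1.15 ± 0.18 SE, adjusted p = 0.000257), while control males held 9.57 to 19.5 CPM and malnourished females 8.67 to 11.3 CPM. The receptors for bile acids (Nr1h4), drugs (Nr1i2) and the hepatocyte regulator Hnf4a did not pass, at 0.12 ± 0.15 (SE, adjusted p = 0.633), 0.26 ± 0.14 (SE, adjusted p = 0.239) and -0.079 ± 0.13 (SE, adjusted p = 0.733).

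Clotting genes, also named in that title, gave counts near or below those of all genes. Of 17 procoagulant genes 1 was lower and 0 higher, beside 6.04% and 6.34% of all tested genes (2 lower without malnourished male 1 or with the 2 compared groups alone). This was F7, clotting factor VII, at 116, 95.3, 82.8, 92.2 and 129 CPM against 175, 137, 165, 155 and 144 CPM, without overlap (-0.59 ± 0.11 SE, adjusted p = 0.00184), beside -0.38 in control males and -0.19 in malnourished females. None of 11 anticoagulant genes (2 at an unadjusted p below 0.05, lowest adjusted p = 0.0624), 8 fibrinolysis genes (3, 0.0968) or 7 vitamin K cycle genes (1, 0.0815) was called by edgeR. DESeq2 called 1 anticoagulant gene lower, 0 fibrinolysis genes and 1 vitamin K cycle gene lower, as did edgeR with scaling by library size alone. Without malnourished male 1, edgeR called 2, 1 and 1 genes of these lists lower.

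Acute phase genes, which encode plasma proteins of inflammation, gave 5 lower and 0 higher of 21 against control females (6.04% and 6.34% of all tested genes), with a median of -0.38. Orm1, an orosomucoid, stood at 282, 80.1, 193, 118 and 154 CPM against 579, 885, 586, 830.2 and 544 CPM without overlap (-2.05 ± 0.29 SE, adjusted p = 9.27e-05). Its copy Orm3 gave -4.47 ± 0.83 (SE, adjusted p = 0.00139) (-3.83 without control female 4) and Orm2 -2.27 ± 0.40 (SE, adjusted p = 0.000845). Hamp, which encodes the iron hormone hepcidin, was lower at -1.16 ± 0.29 (SE, adjusted p = 0.0112). In control males 10 of the 21 were higher and 1 lower than in control females (8.64% and 9.46% of all tested genes). Directly against control males, 15 were lower and 0 higher in malnourished males (7.8% and 7.11%). Saa1 stood at 2254, 1117, 489 and 64.7 CPM in control males. In malnourished males Saa1 was at 7.68 to 27.9 CPM against 20.1 to 54.9 CPM in control females. Of 20 complement genes 5 were lower and 2 higher (6.04% and 6.34% of all tested genes). The lower count was 2 without malnourished male 3 or control female 4, and with the 2 compared groups alone 1 was lower and 1 higher. C8a, of the membrane attack complex, was higher by 1.04 ± 0.25 (SE, adjusted p = 0.0102), while C3, the central component, was lower at -0.53 ± 0.13 (SE, adjusted p = 0.0102), not called with the 2 compared groups alone (0.0622), and the lectin Mbl2 at -0.47 ± 0.11 (SE, adjusted p = 0.00725).

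Markers of resident macrophages were lower in malnourished males. Of 11 Kupffer cell markers 8 were lower and 0 higher, with a median of -0.50 (6.04% and 6.34% of all tested genes). Against the same control females all 11 were lower in control males (9.46% of all tested genes, median -0.67). In malnourished females 0 were lower (4.99% of all tested genes, median -0.16). Directly between the malnourished groups 1 was lower and 0 higher in males (7.28% and 10.6%). Summed over the markers the level was 581 to 831 CPM in malnourished males and 761 to 1410 CPM in control females, so the groups overlapped. The count of 8 was 2 without malnourished male 3 or control female 4, 4 without malnourished male 4, 5 without malnourished male 1, and 2 with the 2 compared groups alone. Timd4, a receptor for dying cells, stood at 9.01, 10.5, 9.15, 9.71 and 11.1 CPM against 14, 12.6, 12.5, 19 and 12 CPM (-0.50 ± 0.11 SE, adjusted p = 0.00608) and the complement receptor Vsig4 at 35.5, 39.3, 35.4, 31.8 and 34.4 CPM against 44.5, 43.3, 44.4, 58.3 and 43.5 CPM (-0.41 ± 0.093 SE, adjusted p = 0.00685), both without overlap. In bulk tissue fewer cells of a type and less RNA per cell cannot be told apart. The complement subunits C1qa, C1qb and C1qc, which Kupffer cells make, are counted among the lower genes of both lists, and each lost its call without malnourished male 3 (adjusted p = 0.0606 to 0.0905) or control female 4 (0.0556 to 0.129), or with the 2 compared groups alone (0.0779 to 0.11).

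Of the other cell type lists, 4 of 11 stellate cell markers, 1 of 10 sinusoidal endothelial markers and 1 of 9 T and NK cell markers were lower, beside 6.04% of all tested genes, and 0 of 6 cholangiocyte, 0 of 5 B cell and 0 of 3 neutrophil markers were called. The DESeq2 count was also 0 for the last 3 lists, as was the count at an unadjusted p below 0.05, and their lowest adjusted p was 0.23, 0.305 and 0.896. The stellate count was 2 without malnourished male 1 or 3 or control female 1 or 3. Among 7 red cell markers 2 were higher, beside 6.34% of all tested genes. The count was 6 without control female 2, 4 without malnourished male 4 and 1 without any 1 of the other 8. Alas2, the red cell enzyme of haem synthesis, stood at 101, 25.1, 55, 24.4 and 53 CPM against 13.1, 11.8, 13.8, 8.59 and 12.4 CPM (2.11 ± 0.28 SE, adjusted p = 3.84e-05), with 109 to 148 CPM in control males. The high level of Alas2 in control males did not hold for the list. There 4 of the 7 markers were lower and 1 higher than in control females (9.46% and 8.64% of all tested genes), with a median of -0.93. No adipocyte marker was tested, and these summed to 0.353 CPM or less in every liver of the main groups. Of hepatocyte zones, 6 of 9 periportal markers were lower and 1 higher (6.04% and 6.34% of all tested genes), with a median of -0.94. In malnourished females 7 were lower (4.99% of all tested genes), with a median of -1.01. Among the 6 are Sds, Gls2, Ass1 and the histidine ammonia-lyase Hal (-0.79 ± 0.17 SE, adjusted p = 0.00483), which are also counted among the enzymes of amino acid breakdown and urea. Of 10 pericentral markers 3 were lower and 0 higher (6.04% and 6.34% of all tested genes). The part of cell composition or zonation in other differences was not tested.

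Lists of basic liver functions were read against the 12.4% of all tested genes that were called in either direction. Among 22 oxidative phosphorylation genes (2 at an unadjusted p below 0.05, lowest adjusted p = 0.0503), 19 genes of glucose production and use (6, 0.057) and 19 cell cycle genes (6, 0.0773), 0 were called by edgeR. DESeq2 called 1 higher, 3 (1 higher and 2 lower) and 1 higher, and edgeR with scaling by library size alone called 1 glucose gene lower. Leaving out 1 library gave at most 3 called genes in the first list (without control female 2). Of 16 unfolded protein response genes 1 was higher, a share near the 6.34% of all genes, and 0 to 3 with 1 library left out (3 without malnourished male 5).

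**Figure D5:**
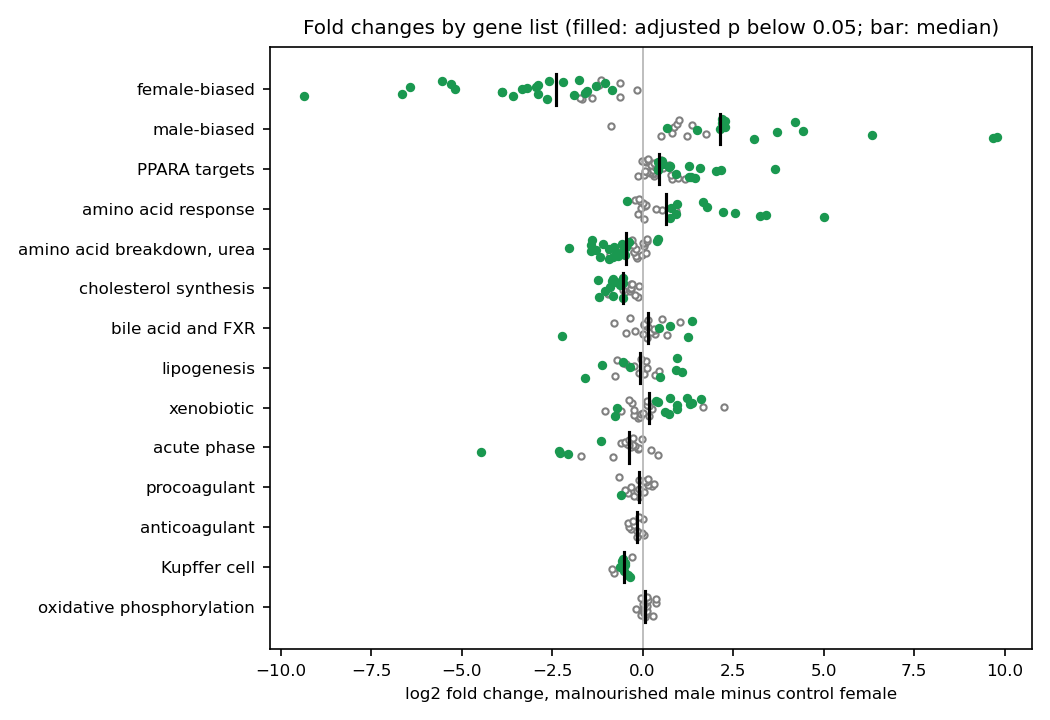
Log2 fold change between malnourished males and control females for the tested members of 14 gene lists, with filled points at an adjusted p below 0.05 and a bar at the list median. Female-biased genes centre on -2.40 and male-biased genes on 2.13, while oxidative phosphorylation genes stay near 0.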

How the data were processed

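Liver RNA of 19 mice was measured. Per the labels' protocols, RNA came from frozen liver with a Qiagen RNeasy kit and DNase, and libraries were made with the Illumina TruSeq stranded total RNA kit. The submitters' processing notes name Trim Galore, HISAT2, featureCounts and the mm10 build, without versions or settings. The values the authors deposited are raw counts per gene for 21950 genes, with totals of 21377385 to 33501907 in the 10 libraries compared, and 26 of 27 gene symbols that had been turned into dates were restored through their identifiers.

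Genes were kept by edgeR's filterByExpr (minimum count 10, minimum total 15), which left 13391 genes with 99.977% of counts. All 19 libraries in 4 groups of sex and diet were fitted together with edgeR 4.0.16 in R 4.3.3 (trimmed mean of M values, quasi-likelihood F-tests, residual df 15, Benjamini-Hochberg adjustment over all tested genes, threshold 0.05). The biological coefficient of variation was 0.179. The 5 comparisons were fitted in 1 model, and those against control females share these mice. CPM values use the scaled library sizes. Overlap means overlap of CPM ranges. Distances used exact permutation tests over mice, two-sided, with smallest reachable p of 0.0159 and 0.00794. The fitting code was tested on simulated data. DESeq2 1.42.0 and limma 3.58.1 (voom with quality weights) were alternatives, as were other scalings, filters, a 2-fold threshold, leaving out each library and leaving out or adjusting for label series 62.

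The genes named with values were the 12 largest called differences in each direction among genes whose groups did not overlap and whose mean over the 10 libraries reached 2 CPM, Y-linked genes apart, and members of 36 gene lists. The members, lists and clock genes were chosen with earlier results of these data known. Promoters are from RefSeq (GRCm38.p6, 32851 promoters of 27025 symbols), matched by symbol. Results for some members of the lists are not reported here, though the members are counted.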

Additional observations from a re-analysis of the deposited data

Results flagged for a closer look

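In 53 sets of 4 to 5 values, the highest or lowest mouse was compared with the rest of its group by the ratio of its gap to the whole range, and 3 sets passed the 95% critical value, where chance gives about 1 in 20. Igfbp1 in control female 4 stood at 16.64 CPM, below the 31.73 to 35.85 CPM of the other 4. Sult3a1 in malnourished male 2 stood at 0.7521 CPM, above the 0 to 0.1832 CPM of the others. Orm3 in control female 4 stood at 9.362 CPM, above the 2.048 to 3.493 CPM of the others.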

How the results depend on the processing

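Of 123 gene-level differences recomputed under the alternatives, 0 called ones reversed. Calls were lost by 56 under a 2-fold threshold, 10 when only the 2 compared groups were fitted and 3 without label series 62, and by none under the other scalings. In the main comparison, 50 genes were higher and 48 lower (98 called) under the 2-fold threshold, and 442 and 506 (948) with the 2 groups alone. Leaving out 1 library gave 578 to 1073 higher, 498 to 967 lower and 1091 to 2034 called genes. The 2-fold threshold called 177 genes for control males against control females, 179 for malnourished against control males, 97 for malnourished against control females and 82 for malnourished males against malnourished females. For control males and malnourished females against control females, limma-voom called 3681 and 2815. Leaving out 1 library gave 1544 to 2671, 1405 to 2225, 906 to 1374 and 1412 to 2677 called genes. The distance difference from control males ranged from -0.1631 to -0.1147, and was -0.1453 without control female 5. That from malnourished females ranged from 0.0378 to 0.078, the latter without malnourished male 5.

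Mice with the same replicate number were not paired: their deviations correlated at 0.0377, -0.3068, 0.0481, 0.0841 and 0.1198, and only number 5 correlated best with its own. A fit of the 2 groups with a replicate block called 321 higher and 333 lower genes (654), and 16 calls among the 123 gene-level differences were lost. With the block, 9 PPARA targets and 9 male-biased genes were higher, and 6 clock genes, 4 cholesterol genes, 1 stellate marker, 0 Kupffer markers and 0 complement genes were lower. Genes near 0 CPM, such as Cyp3a41a in males, rest on few counts, which limits the precision of their fold differences.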
